A study of Mus musculus with 12 samples.

Results

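CD11b-sorted brain cells were compared between mice given bone marrow without a head shield and mice given bone marrow behind one, in both cases 6 hours after lipopolysaccharide (LPS). All genes were compared, and the groups were set by the sample titles: 3 unshielded and 3 shielded libraries, 6 of the 12 libraries in the series. Every mouse was an adult male wild-type C57BL/6J animal, 6 months old. All had been fed PLX5622 for 2 weeks and then standard chow for 6 weeks before an intraperitoneal injection of 50 µg of LPS. By their labels the groups differ only in the shield. The other 6 libraries come from mice with and without the shield that had no LPS, and they are used here for a shared estimate of the spread and for the test of whether the shield difference changed with LPS. Whether each library is a mouse of its own is not stated in the labels, and the p-values rest on the spread between libraries, part of which may be technical.

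A head shield keeps the brain out of the radiation field that prepares a mouse for a marrow transplant. PLX5622 inhibits CSF1R, the receptor that microglia need to survive, and most microglia are lost while it is given. When it is withdrawn the brain refills with macrophages, either from surviving microglia or from cells of the blood that derive from the bone marrow. Microglia arise from the yolk sac and carry their own transcription factor program, headed by Sall1, and marrow-derived macrophages that settle in the brain stay distinguishable from them. LPS, a component of the outer membrane of Gram-negative bacteria, is sensed through TLR4 with CD14 and MD-2 and starts an NF-kB and interferon response. No label gives the share of marrow-derived cells in either group, so brain irradiation, cell origin and the shield itself cannot be told apart. In bulk RNA of sorted cells, fewer cells of a type and less RNA per cell cannot be told apart either.

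Total counts ranged from 29794946 to 40730784 in the shielded libraries and from 56776710 to 60495968 in the unshielded libraries, so depth differed with the group, and counts thinned to the smallest total are among the alternatives. Genes with at least 10 counts numbered 15166 to 16569 and 18084 to 19224 in the same order. On the first principal component, with 72.8% of the variance, shielded libraries 1 and 2 lay at -102.2 and -65.5, the unshielded libraries lay between 35.7 and 71.5, and shielded library 3 stood between them at -0.20. Library 3 also held more RNA of neurons: the mean log2 CPM of 10 neuron genes was 1.64, 2.56 and 3.87 in shielded libraries 1, 2 and 3 and 4.02, 3.45 and 4.31 in the unshielded ones. Of the microglial genes, Csf1r measured 8959.8, 9056 and 7183 CPM in the shielded and 5745, 6433 and 5615 CPM in the unshielded libraries, whereas the T cell receptor chain genes Cd3d, Cd3e and Cd3g did not reach the count minimum.

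Across 18875 genes tested, 8423 (44.6%) differed between unshielded and shielded mice after LPS at an adjusted p below 0.05 in edgeR's quasi-likelihood test, of which 3596 (19.1% of those tested) were higher and 4827 (25.6%) were lower in unshielded mice. With at least a 2-fold difference, 2116 (11.2%) were higher and 818 (4.33%) lower. The median log2 fold change over all genes was 0.07. The 3 libraries of one group lay entirely above the other for 4121 genes (21.8%) in which unshielded mice were higher and 5218 genes (27.6%) in which they were lower. Since close to every second gene was called, counts for gene groups below are to be read against these shares. The count of higher genes also moved with the libraries used: it was 2134 without shielded library 1, 2242 without shielded library 2 and, in the other direction, 5231 without shielded library 3. With limma-voom and quality weights 6014 genes were higher and 5914 lower, so that the excess of lower genes was not seen there. Where they change a call or a count by much, values are also given from that model, from a fit with the neuron and oligodendrocyte level as a covariate (the brain-cell covariate) and from the 6 LPS libraries alone. Throughout, values are CPM, read counts scaled to the library total with TMM factors, for libraries 1, 2 and 3 in that order. A log2 fold change is that of unshielded over shielded mice with its standard error. That error comes from the model of all 12 libraries and is not the spread of the 6 LPS libraries alone.

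**Figure D1:**
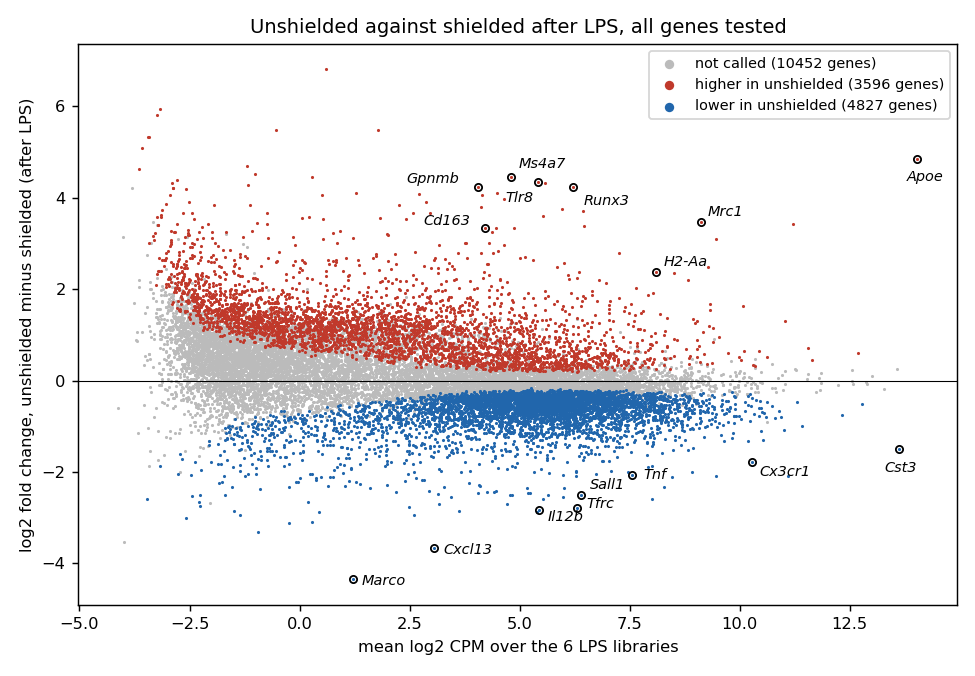
Log2 fold change of unshielded over shielded mice after LPS (y axis) against the mean log2 CPM of the 6 libraries (x axis), 1 point per gene tested. Coloured points passed an adjusted p of 0.05: 3596 genes were higher and 4827 lower in unshielded mice, with Apoe far to the right and high and Marco at the bottom.

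Microglial identity genes were lower in unshielded mice. The list of 29 genes holds some that other brain macrophages also express, such as Trem2. Of the 29, 24 were lower and 5 did not pass the test, and the median log2 fold change was -1.06. Sall1, the transcription factor that sets microglial identity, measured 237, 214 and 161 CPM in the shielded libraries and 51.8, 32.0 and 24.7 CPM in the unshielded ones. Each unshielded library was below each shielded library, with a log2 fold change of -2.50 ± 0.40 (adjusted p = 0.000534), and its relative Sall3 fell similarly from a mean of 117 to 19.4 CPM (-2.60 ± 0.36, adjusted p = 0.000217). Cx3cr1, the receptor for neuronal fractalkine, measured 2754, 2035 and 2249 CPM with the shield and 899, 604 and 546 CPM without. The groups did not overlap, and the log2 fold change was -1.78 ± 0.18 (adjusted p = 1.72e-05). Cst3, the secreted protease inhibitor cystatin C and among the most abundant microglial transcripts, fell from 20958 to 7461 CPM on average (-1.49 ± 0.14, adjusted p = 9.1e-06).

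Surface receptors used to recognise microglia were lower by differing amounts. P2ry12, the purinergic receptor that guides microglial processes, measured 524, 631 and 584 CPM in shielded and 397, 309 and 344 CPM in unshielded libraries. Its 2 groups were separate, with a log2 fold change of -0.73 ± 0.18 (adjusted p = 0.00673). Tmem119 was 1621, 1324 and 1343 CPM against 1102, 1187 and 1002 CPM. All unshielded values were below the shielded ones, but the log2 fold change of -0.38 ± 0.12 (adjusted p = 0.0203) lost its call in 5 of 18 alternatives (adjusted p 0.00706 to 0.203), among them leaving out shielded library 1 (-0.32) and unshielded library 3 (-0.33). Siglech, a sialic acid-binding lectin, fell (-1.29 ± 0.14, adjusted p = 2.59e-05), as did Selplg, the P-selectin ligand (-1.32 ± 0.21, adjusted p = 0.000285). Csf1r, the target of PLX5622, was lower as well (-0.50 ± 0.12, adjusted p = 0.00477), but not with the brain-cell covariate (-0.29, adjusted p = 0.0564).

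Some genes of the microglial group did not differ in this test. Trem2, a lipid-sensing receptor of all brain macrophages, measured 1018, 1152 and 977 CPM and 1077, 1101 and 1097 CPM. These values overlapped (log2 fold change 0.06 ± 0.09, adjusted p = 0.613), and the sign turned without shielded library 1 (-0.0022) or shielded library 3 (-0.050). Fcrls, an Fc receptor-like gene that is strongly microglial, measured 2223, 2319.6 and 2189 CPM against 2678, 2715 and 2594 CPM, with all unshielded values the higher, and did not pass (log2 fold change 0.25 ± 0.10, adjusted p = 0.0707, 0.00834 to 0.226 over the alternatives, passing in 4 of 18). Gpr34, a lysophosphatidylserine receptor, was 67.8, 63.4 and 103 CPM against 109, 65.4 and 80.1 CPM with overlapping groups. Its log2 fold change was 0.12 ± 0.22 (adjusted p = 0.673) and turned negative without shielded library 1 (-0.0074), shielded library 2 (-0.049) or unshielded library 1 (-0.14). Fcrls and Gpr34 were picked for mention after their values were seen. P2ry12 and Csf1r share exon sequence with another annotated gene, and since the strand setting of the counting is not given in the sources used here, their reads may include some of the neighbour's.

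**Figure D2:**
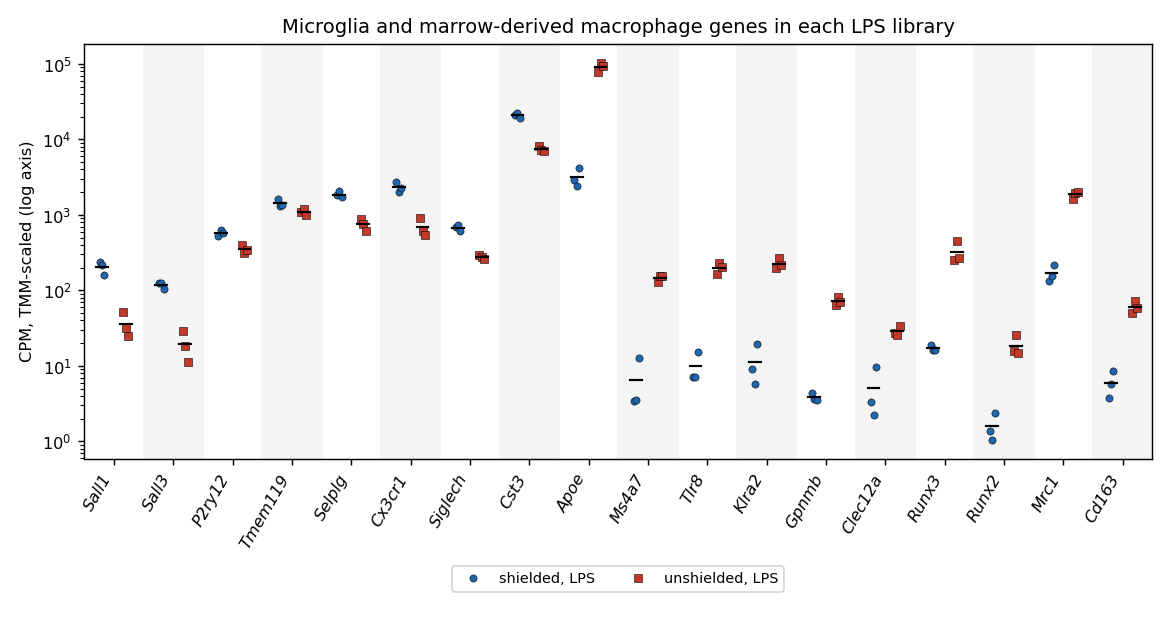
CPM on a log axis of 18 genes that distinguish microglia from marrow-derived macrophages in each of the 6 LPS libraries, with a bar at each group's mean. Sall1, Cx3cr1 and Cst3 were lower in all 3 unshielded libraries and Apoe, Ms4a7 and Runx3 were higher, with no overlap between the groups.

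Genes of marrow-derived brain macrophages were higher in unshielded mice. Of 31 such genes, 21 were higher, 2 were lower and 8 did not pass, with a median log2 fold change of 2.02. This list was drawn up with knowledge of the study's own comparison and of these libraries, so its direction is not independent evidence. Apoe, the main lipid carrier of the brain, measured 2939, 2431 and 4205 CPM in the shielded libraries and 78455, 103117 and 92668 CPM in the unshielded ones. No library of one group came near the other, with a log2 fold change of 4.84 ± 0.45 (adjusted p = 1.7e-05), and Apoe alone took 7.596%, 8.745% and 8.751% of all counts in the unshielded libraries against 0.2394%, 0.2062% and 0.3986% with the shield. Ms4a7, a tetraspan protein of blood-derived macrophages, measured 3.44, 3.48 and 12.9 CPM against 128, 157 and 153 CPM. Shielded library 3 was the highest of its group, and the log2 fold change of 4.46 ± 0.56 (adjusted p = 0.000108) became 5.34 without it. For Clec12a, an inhibitory lectin, the values were 3.35, 2.22 and 9.61 CPM and 27.1, 26.0 and 34.1 CPM. They did not overlap (2.51 ± 0.46, adjusted p = 0.00125), and the fold change was 3.30 without shielded library 3.

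Several other members of the group also rose, by differing amounts. Klra2, a Ly49-family receptor whose reads can be shared with its near copies, rose by a log2 fold change of 4.31 ± 0.54 (adjusted p = 9.79e-05) from 11.4 to 227 CPM. Gpnmb, a glycoprotein of lipid-laden phagocytes, rose from 3.82 to 72.2 CPM (4.23 ± 0.27, adjusted p = 3.12e-06), and Emilin1, an elastin-associated matrix protein, from 5.50 to 94.6 CPM (4.10 ± 0.30, adjusted p = 5.5e-06). Axl, a receptor for apoptotic cells, was higher by 2.47 ± 0.19 (adjusted p = 4.58e-06), the chemokine receptor Ccr1 by 2.02 ± 0.23 (adjusted p = 3.9e-05) and the platelet factor Pf4 by 2.55 ± 0.18 (adjusted p = 3.12e-06). Against the rest of the group, Fcgr4, an activating IgG receptor, and the lectin Clec4a3 were lower (-0.68 ± 0.11 and -0.56 ± 0.11, adjusted p = 0.00032 and 0.0014).

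Among the Runx factors, DNA-binding proteins of blood lineages, Runx3 and Runx2 were higher, their partner Cbfb was slightly lower, and Runx1 did not pass. Runx3 measured 19.1, 16.3 and 16.3 CPM with the shield and 256, 455 and 266 CPM without. The lowest unshielded library was far above the highest shielded one (4.24 ± 0.32, adjusted p = 6.36e-06). Runx2 went from 1.59 to 18.6 CPM (3.53 ± 0.30, adjusted p = 7.08e-06), and Cbfb from 237 to 184 CPM (-0.36 ± 0.09, adjusted p = 0.00767), a call lost in 2 of 18 alternatives (adjusted p 0.00049 to 0.0927). The count of lower Runx factors was 2 in place of 1 without shielded library 3 or unshielded library 2, and ran from 0 to 2 over the alternatives.

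Border-associated macrophages, which live in the meninges and around vessels, share several genes with marrow-derived cells. Of 13 of their genes, 10 were higher in unshielded mice and 3 did not pass, with a median log2 fold change of 1.26. Mrc1, the mannose receptor, measured 133, 156 and 214 CPM against 1603, 1972 and 2021 CPM. The groups were apart in all libraries (3.48 ± 0.19, adjusted p = 5.76e-07). Cd163, the haemoglobin scavenger receptor, measured 3.71, 5.74 and 8.61 CPM against 50.9, 72.2 and 58.1 CPM. It was likewise higher in every unshielded library (3.33 ± 0.26, adjusted p = 6.43e-06). Stab1, a scavenger receptor (1.30 ± 0.14, adjusted p = 2.26e-05), the transglutaminase F13a1 (1.30 ± 0.20, adjusted p = 0.000306) and the transcription factor Maf (0.81 ± 0.14, adjusted p = 0.000454) also rose.

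PU.1, encoded by Spi1, is the factor that macrophage genes share, and the letters GAGGAA, searched on both strands in the 250 bases before each start, form the core it binds. They occur in 25.9% of 27025 mouse promoters, in 12 of the 20 higher marrow-derived genes with a promoter entry and in 6 of the 16 lower microglial genes with one. The windows around the match in Mrc1, at chr2:14229319-14229404 on the plus strand, and Tlr8, at chrX:167264381-167264466 on the minus strand (RefSeq, GRCm38.p6), are shown because both genes rose. Capitals mark the core, which reads on the opposite strand in both.
Mrc1: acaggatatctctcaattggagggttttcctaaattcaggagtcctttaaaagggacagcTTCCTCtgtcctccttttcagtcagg
Tlr8: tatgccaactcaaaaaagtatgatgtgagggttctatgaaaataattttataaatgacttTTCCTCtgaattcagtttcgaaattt
A match only describes the letters and does not show that PU.1 bound there.

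Calls among genes of circulating monocytes differed between models. Of 12 tested, 1 was higher and 11 did not pass in edgeR's test, whereas limma-voom called 7 higher and 1 lower. The one higher in edgeR's test was Itgal, the integrin subunit CD11a (1.48 ± 0.36, adjusted p = 0.00651). Ly6c2, a surface protein of inflammatory monocytes, measured 11.4, 7.04 and 16.2 CPM and 19.6, 17.7 and 16.5 CPM, and Ccr2, the receptor that brings monocytes out of the marrow, 5.03, 4.39 and 8.96 CPM and 6.47, 7.45 and 6.64 CPM. Neither passed the test (log2 fold changes 0.63 ± 0.35 and 0.16 ± 0.21, adjusted p = 0.155 and 0.56). Shielded library 3 was the highest shielded library for both, and without it both passed, Ly6c2 at 0.89 and Ccr2 at 0.48, and 4 of the monocyte genes were higher and 1 lower. Adjusted p over the alternatives ran from 0.000793 to 0.491 for Ly6c2 and from 0.015 to 0.988 for Ccr2, whose sign turned without shielded library 1 (-0.0050) or 2 (-0.067).

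The 12 genes with the largest rise, among those whose log2 CPM averaged 3 or more and whose groups did not overlap, were Apoe, Ms4a7, Tlr8, Klra2, Runx3, Gpnmb, Emilin1, Pde7b, Cyp4f18, Col14a1, Jaml and Pla2g7. Pde7b, a cAMP phosphodiesterase, rose from 4.46 to 74.5 CPM (4.06 ± 0.34, adjusted p = 1e-05), Cyp4f18, a leukotriene-inactivating cytochrome, from 6.37 to 100.3 CPM (3.97 ± 0.36, adjusted p = 1.55e-05), and Col14a1, a collagen, from 4.80 to 66.7 CPM (3.79 ± 0.28, adjusted p = 5.5e-06). The junctional adhesion molecule-like gene Jaml rose by 3.75 ± 0.62 (adjusted p = 0.000615) and the phospholipase Pla2g7, which inactivates platelet-activating factor, by 3.72 ± 0.39 (adjusted p = 3.5e-05). Cyp4f18, Jaml and Pla2g7 share exon sequence with a neighbouring gene.

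In the other direction the 12 were Cxcl13, Mrc2, Postn, Il12b, Tfrc, Mlph, Peg10, Sall3, Fscn1, Rps4l, Adora3 and Phgdh. Tfrc, the transferrin receptor that brings iron into cells, measured 257, 199 and 176 CPM with the shield and 36.5, 30.1 and 24.5 CPM without. The highest unshielded library was far below the lowest shielded one (-2.79 ± 0.16, adjusted p = 5.85e-07). Mrc2, a collagen uptake receptor, fell from 118 to 16.0 CPM (-2.88 ± 0.32, adjusted p = 5.21e-05), as did the periostin gene Postn (-2.86 ± 0.36, adjusted p = 0.0001), the melanosome transport protein Mlph (-2.69 ± 0.44, adjusted p = 0.000622) and the retrotransposon-derived imprinted gene Peg10 (-2.69 ± 0.30, adjusted p = 3.1e-05). Fscn1, an actin bundler known from microglia, fell (-2.59 ± 0.33, adjusted p = 0.000103), as did the ribosomal protein gene Rps4l (-2.55 ± 0.13, adjusted p = 5.76e-07), the adenosine receptor Adora3 (-2.54 ± 0.32, adjusted p = 0.0001) and the first enzyme of serine synthesis, Phgdh (-2.51 ± 0.26, adjusted p = 2.69e-05).

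Marco, a scavenger receptor for bacteria, fell more than any of these but lay under that level minimum. It measured 11.4, 10.1 and 8.80 CPM in the shielded libraries after LPS and 0.321, 0.604 and 0.560 CPM in the unshielded ones. The groups differed by a log2 fold change of -4.35 ± 0.35 (adjusted p = 4.93e-06). Without LPS it was at 0, 0.0969 and 0.0867 CPM with the shield and 0.0684, 0.0963 and 0.0576 CPM without, so all 6 of those libraries were below the 6 LPS libraries.

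The genes whose products bind LPS did not pass the test, whereas several adaptors and kinases behind them were lower in unshielded mice. Of 15 LPS receptor and adaptor genes, 7 were lower and 8 did not pass, with 1 higher in limma-voom. Tlr4 measured 51.0, 41.5 and 49.1 CPM with and 42.6, 44.1 and 43.9 CPM without the shield, and Ly96, which encodes MD-2, 5.82, 5.50 and 7.08 CPM and 6.45, 7.17 and 7.14 CPM. Both overlapped and neither passed (log2 fold changes -0.12 ± 0.09 and 0.17 ± 0.13, adjusted p = 0.3 and 0.298). The co-receptor Cd14 measured 2531, 2318 and 1735 CPM and 1489, 2304 and 1894 CPM, also with overlap (-0.21 ± 0.17, adjusted p = 0.328). Without shielded library 3, its lowest shielded value, Cd14 passed at -0.41 (adjusted p over the alternatives 0.0212 to 0.69). Ticam1 and Ticam2, which encode TRIF and TRAM, the adaptors of the interferon arm of TLR4, were lower (-0.92 ± 0.12 and -1.11 ± 0.16, adjusted p = 6.88e-05 and 0.000153), and so was the kinase gene Map3k7 (-0.48 ± 0.10, adjusted p = 0.00146).

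Among the Toll-like receptors, 7 of 12 were lower and 1 higher in unshielded mice. Tlr8, an endosomal receptor for RNA, was the 1 that rose. It measured 7.20, 7.16 and 15.1 CPM with the shield and 165, 228 and 206 CPM without. The groups were far apart (4.34 ± 0.38, adjusted p = 1.22e-05). Tlr1, which pairs with TLR2 to bind bacterial lipopeptides, measured 254, 182 and 163 CPM against 78.0, 89.5 and 78.9 CPM. Every unshielded library was lower (-1.28 ± 0.14, adjusted p = 2.2e-05), and its counterpart Tlr6 (-0.99 ± 0.10, adjusted p = 1.56e-05) and Tlr3, the receptor for double-stranded RNA (-0.99 ± 0.13, adjusted p = 6.34e-05), also fell.

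Several inflammatory cytokines and chemokines were lower in unshielded mice, Tnf and Il12b among them. Of 18 cytokines tested, 7 were lower (38.9%) and 1 higher (5.56%) in unshielded mice, against 25.6% and 19.1% over all genes. Tnf, the first-wave cytokine of macrophages, measured 509, 383 and 294 CPM with the shield and 88.9, 117 and 76.6 CPM without. The groups were separate, with a log2 fold change of -2.07 ± 0.26 (adjusted p = 0.0001). Il12b, the p40 subunit of interleukin-12 and interleukin-23, measured 229.9, 68.5 and 87.7 CPM against 11.1, 28.1 and 15.1 CPM. Shielded library 1 was the highest, and the log2 fold change of -2.83 ± 0.50 (adjusted p = 0.000999) was -2.14 without it. Il6 measured 42.2, 27.1 and 32.8 CPM against 12.4, 14.5 and 10.2 CPM and was lower in each unshielded library (-1.46 ± 0.25, adjusted p = 0.000695).

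Il1a and the growth factor Csf1 were also lower (-1.62 ± 0.26 and -1.42 ± 0.18, adjusted p = 0.000514 and 6.06e-05). Il1b, whose product is released through the inflammasome, measured 591, 283 and 407 CPM and 264, 409 and 278 CPM. The groups overlapped and the difference did not pass (-0.43 ± 0.27, adjusted p = 0.204). Il10, an anti-inflammatory cytokine and the 1 called higher, measured 3.17, 1.46 and 5.22 CPM and 5.26, 9.08 and 6.43 CPM. The lowest unshielded value was just above the highest shielded one, and the log2 fold change of 1.07 ± 0.36 (adjusted p = 0.0309) lost its call in 7 of 18 alternatives (adjusted p 0.00015 to 0.124), among them without shielded library 1 (1.0) or 2 (0.69) and without unshielded library 2 (0.84) or 3 (1.11).

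Of 21 chemokines, 9 were lower (42.9%) and 3 higher (14.3%), against 25.6% and 19.1% over all genes. The higher count was 1 without shielded library 2 or unshielded library 2 and 5 with library totals. With the brain-cell covariate 5 were lower. Cxcl13, which attracts B cells, measured 55.4, 24.6 and 16.8 CPM with the shield and 2.44, 3.70 and 1.49 CPM without. No values overlapped (-3.67 ± 0.53, adjusted p = 0.000272), and the fold change was -3.06 without shielded library 1, the highest. Ccl12, a monocyte attractant with close copies nearby, measured 1439, 725 and 800.5 CPM against 232, 238 and 268 CPM. It was lower in all 3 unshielded libraries (-2.0 ± 0.23, adjusted p = 4.66e-05), as was Ccl9 (-1.53 ± 0.19, adjusted p = 5.39e-05). Cxcl10, an interferon-inducible attractant of T cells, measured 549, 393 and 346 CPM against 103, 178 and 224 CPM. Its groups did not overlap either (-1.35 ± 0.29, adjusted p = 0.00355), but the call was lost with the brain-cell covariate (-0.94, adjusted p = 0.0728). Ccl2, the CCR2 ligand, measured 145, 60.8 and 76.1 CPM against 44.7, 50.6 and 44.8 CPM, with the highest value in shielded library 1. The call (-1.01 ± 0.29, adjusted p = 0.0161) was lost in 5 of 18 alternatives (adjusted p 0.00115 to 0.247), including the one without unshielded library 3 (-0.99). Ccl5 measured 379, 284 and 253 CPM and 147, 258 and 206 CPM, which overlapped (-0.58 ± 0.42, adjusted p = 0.266). Cxcl14 rose from 7.14 to 57.3 CPM (3.0 ± 0.39, adjusted p = 0.00013).

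On the receiving side, 3 of 12 chemokine receptors were higher (25%) and 4 lower (33.3%), near the 19.1% and 25.6% over all genes. The lower count was 2 without unshielded library 3 or with no filter on low counts, and 5 were higher in limma-voom. Cxcr4, which retains cells in the marrow, rose from 27.5 to 287 CPM (3.38 ± 0.30, adjusted p = 1.22e-05), and Cx3cr1, given above, was among the lower. Of 20 NF-kB signalling and feedback genes, 4 were lower and 16 did not pass, a smaller share than over all genes. Nfkb1 and Nfkb2, the p50 and p52 precursors, were among the lower (-0.83 ± 0.15 and -1.09 ± 0.24, adjusted p = 0.000695 and 0.00325), and Nfkb2 lost its call in the 6 LPS libraries with a replicate block (adjusted p = 0.057). The count of lower genes was 2 with the brain-cell covariate, 2 in the 6 LPS libraries alone, 1 in those with a replicate block and 12 in limma-voom. It was 10 without shielded library 3 and 9 without unshielded library 2, and 1 gene was higher without unshielded library 1. Nfkb2, Il1a, Il1b and Cxcl10 share exon sequence with another gene.

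NF-kB binds letters such as GGGA, any base and TTTCC, which stand within 250 bases before the start on either strand in 0.414% of the 27025 promoters. Of the 13 lower cytokine and chemokine genes with an entry, 2 held them, Il6 and Csf1, and of the 10 such genes that did not pass, 2 did, Cxcl1 and Cxcl2. Among the 3 higher ones with an entry, 1 did, Cxcl3. The windows of Il6, at chr5:30013010-30013099 on the plus strand, and Csf1, at chr3:107760594-107760683 on the minus strand (RefSeq, GRCm38.p6), are shown with the match in capitals, which in Csf1 reads on the opposite strand.
Il6: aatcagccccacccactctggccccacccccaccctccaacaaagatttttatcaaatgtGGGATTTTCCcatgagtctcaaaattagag
Csf1: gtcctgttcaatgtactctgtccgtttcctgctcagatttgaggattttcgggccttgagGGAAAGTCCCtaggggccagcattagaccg

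**Figure D3:**
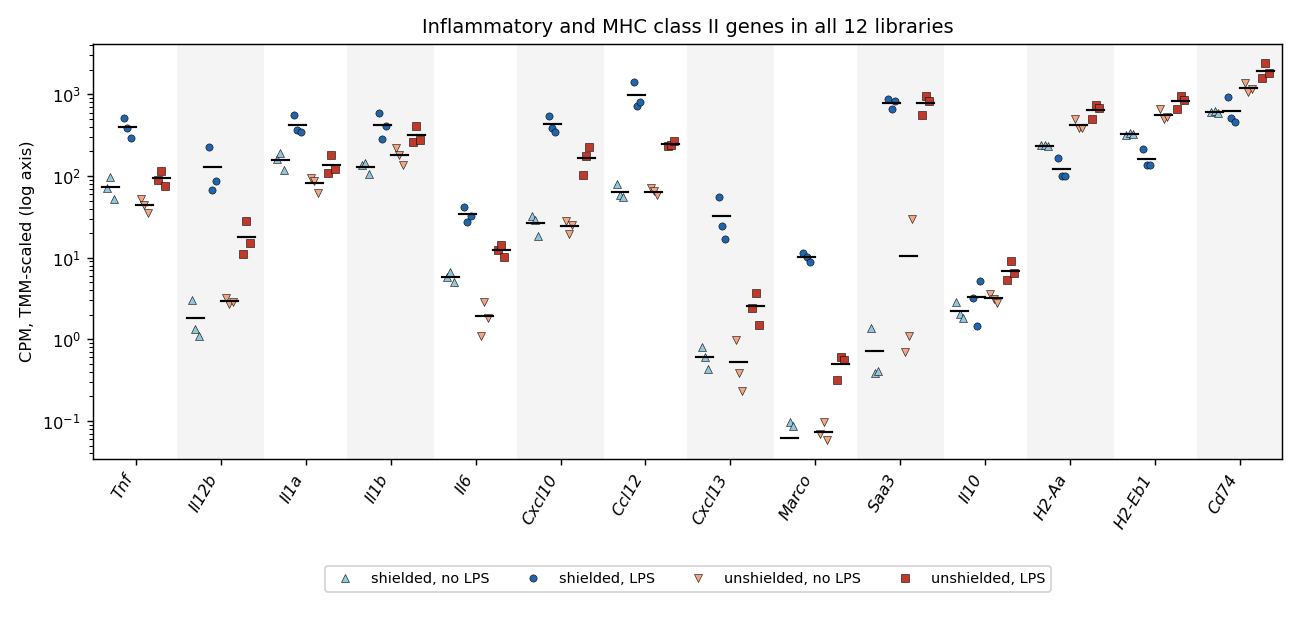
CPM on a log axis of 14 inflammatory and MHC class II genes in all 12 libraries, grouped by shield and LPS, with a bar at each group's mean. After LPS, Tnf, Il12b and Marco were lower and H2-Aa was higher in the 3 unshielded libraries, and Saa3 overlapped. A shielded library without LPS with 0 CPM of Marco cannot be drawn on the log axis.

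Interferon-stimulated genes went both ways. Of 32, 7 were higher and 2 lower in unshielded mice, which is about the share of all genes for the higher and below it for the lower. Oas3, which makes the oligoadenylates that activate RNase L, measured 66.7, 40.3 and 56.8 CPM with the shield and 129, 165 and 116 CPM without. All unshielded libraries were above the shielded ones (1.32 ± 0.29, adjusted p = 0.00412). Bst2, or tetherin, which holds virions at the cell surface, measured 267, 186 and 205 CPM against 432, 518 and 451 CPM. It too was separate (1.09 ± 0.19, adjusted p = 0.000596), as was the antiviral GTPase Mx1 (1.17 ± 0.22, adjusted p = 0.00155).

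Ifit1, which binds viral RNA caps, measured 60.1, 41.5 and 51.5 CPM against 34.4, 33.5 and 41.9 CPM. The highest unshielded value slightly exceeded the lowest shielded one, and the call (-0.48 ± 0.18, adjusted p = 0.0457) was lost in 10 of 18 alternatives (adjusted p 0.017 to 0.204), among them without shielded library 1 (-0.38) and without unshielded library 1 (-0.48) or 2 (-0.39). Isg15, a ubiquitin-like modifier, measured 111, 66.3 and 88.4 CPM and 48.9, 61.4 and 62.9 CPM. These values did not overlap but missed the threshold (-0.62 ± 0.26, adjusted p = 0.0741, 0.0359 to 0.382 over the alternatives), which was passed without shielded library 2 (-0.83). Trim30a, a TRIM-family gene with near copies and the other lower one (-0.35 ± 0.13, adjusted p = 0.0411), lost its call in 11 of 18 alternatives (log2 fold change -0.50 to -0.11), among them without shielded library 1, unshielded library 1, unshielded library 2 or unshielded library 3. The list's counts moved as well, the lower one from 0 to 6 over the alternatives: without shielded library 2, 3 were higher and 6 lower. The lower count was 4 without shielded library 3, 1 without unshielded library 3 and 0 without shielded library 1 or unshielded library 1 or 2.

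Interferon-stimulated genes are switched on through an element whose core reads GAAA, any 2 bases and GAAA again. It was found within 250 bases before the start, on either strand, in 3.46% of the 27025 promoters and in 11 of the 23 interferon-stimulated genes with an entry. The set holds genes that rose and genes that fell: Oas3, at chr5:120777705-120777794 on the minus strand, Bst2, at chr8:71537567-71537656 on the minus strand, and Ifit1, at chr19:34640744-34640833 on the plus strand (RefSeq, GRCm38.p6). All 3 higher genes with an entry, Bst2, Oas3 and Stat2, held the element, and so did the lower Ifit1 and Trim30a. Ifit1 and Trim30a lost their calls in 10 and 11 of 18 alternatives, so their fall is uncertain. The windows are shown with matches in capitals. In Bst2 overlapping matches are marked as 1 run, and in Ifit1 they read on the opposite strand.
Oas3: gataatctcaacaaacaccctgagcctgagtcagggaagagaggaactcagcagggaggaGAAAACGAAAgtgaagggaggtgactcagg
Bst2: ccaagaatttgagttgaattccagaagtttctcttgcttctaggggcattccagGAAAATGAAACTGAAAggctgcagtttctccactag
Ifit1: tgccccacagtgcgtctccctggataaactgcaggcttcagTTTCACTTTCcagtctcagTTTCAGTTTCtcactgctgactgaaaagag

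Of 14 guanylate-binding and immunity-related GTPases, interferon-induced proteins that attack vacuoles, 2 were higher and 6 lower. Igtp fell from 95.3 to 46.7 CPM (-1.03 ± 0.13, adjusted p = 5.52e-05) and Gbp7 from 193 to 131 CPM (-0.55 ± 0.11, adjusted p = 0.00142), while Gbp8 and Gbp9 rose (1.40 ± 0.30 and 0.67 ± 0.12, adjusted p = 0.00237 and 0.000774). These families have near-identical copies, and Igtp, Gbp8 and Gbp9 share exons with other genes, so the split between members is uncertain. With the brain-cell covariate 3 of the family were lower. Among 13 interferons, interferon receptors and interferon regulatory factors, 6 were lower and 7 did not pass, with 1 higher without shielded library 1 and 2 with library totals or the brain-cell covariate. Irf8, a factor of the macrophage lineage, fell from 487 to 268 CPM (-0.86 ± 0.15, adjusted p = 0.000619), and the interferon-gamma receptor subunits Ifngr1 and Ifngr2 fell (-0.55 ± 0.10 and -0.78 ± 0.10, adjusted p = 0.000595 and 5.13e-05).

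Saa3 and Lcn2, classical acute-phase genes, showed no separation between the groups. Saa3, a serum amyloid made by macrophages, measured 889, 663 and 831 CPM with the shield and 559, 945 and 820.3 CPM without. Lcn2, the iron-siderophore trap lipocalin-2, measured 279, 333 and 429 CPM and 405, 354 and 319 CPM. Both overlapped throughout, and neither passed (log2 fold changes -0.04 ± 0.87 and 0.05 ± 0.62, adjusted p = 0.976 and 0.95). These standard errors rest on all 12 libraries and do not measure the spread of the 6 LPS libraries. Leaving out shielded library 1 or unshielded library 1 turned the sign of both (0.018 and 0.11 for Saa3, -0.12 and -0.082 for Lcn2), and leaving out shielded library 2 turned that of Lcn2 (-0.016). Acod1, the enzyme that makes itaconate, measured 248, 123 and 179.6 CPM and 83, 146 and 105 CPM, with overlap (-0.72 ± 0.42, adjusted p = 0.172). Over the whole list 2 of 19 genes were higher (10.5%) and 4 lower (21.1%), against 19.1% and 25.6% over all genes, with 6 higher in limma-voom. Cp, the ferroxidase ceruloplasmin, rose (1.46 ± 0.19, adjusted p = 9.64e-05). Ch25h, which makes the antiviral oxysterol 25-hydroxycholesterol, measured 104, 72.8 and 49.0 CPM against 17.6, 24.8 and 28.7 CPM. It was lower in all unshielded libraries (-1.67 ± 0.28, adjusted p = 0.000736), as was the prostaglandin E synthase Ptges (-1.15 ± 0.26, adjusted p = 0.00333).

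Genes of the MHC class II molecule, which presents antigen to helper T cells, were higher in unshielded mice. Of 13 class II genes, 7 were higher and 4 lower, and the higher ones included the chains that form the surface molecule. H2-Aa, the alpha chain of I-A, measured 165, 101 and 102 CPM with the shield and 506, 734 and 675 CPM without. Each unshielded library was above each shielded one (2.38 ± 0.20, adjusted p = 6.53e-06). The beta chains H2-Ab1 and H2-Eb1 rose by 2.20 ± 0.20 and 2.35 ± 0.19 (adjusted p = 9.31e-06 and 5.03e-06). Cd74, the invariant chain that escorts class II to endosomes, measured 926, 521 and 455 CPM against 1607, 2437 and 1808 CPM. Its groups were separate as well (1.62 ± 0.24, adjusted p = 0.000232). Ciita, the master transactivator of the pathway, was named after its values were seen and rose from 1.52 to 3.29 CPM (1.12 ± 0.20, adjusted p = 0.000605).

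The 4 lower members numbered 1 with the brain-cell covariate and 2 in the 6 LPS libraries alone. H2-Oa, a chain of H2-O that restrains peptide loading, measured 20.02, 23.5 and 14.8 CPM with the shield and 6.74, 7.06 and 5.76 CPM without. It was lower in every unshielded library (-1.57 ± 0.19, adjusted p = 3.78e-05). The T cell costimulators Cd86 and Cd80 were lower (-0.54 ± 0.15 and -0.53 ± 0.14, adjusted p = 0.00956 and 0.00928), calls that were lost in 3 of 18 and 3 of 18 alternatives (adjusted p 0.000197 to 0.082 and 0.00057 to 0.149). Of 15 MHC class I genes 2 were higher and 1 lower, and Psmb9, an immunoproteasome subunit, was 1 of the higher (0.48 ± 0.11, adjusted p = 0.00266). The class I counts stood at 4 higher without shielded library 1, 1 higher without shielded library 2 or 3 or unshielded library 1 or 3, 4 lower without shielded library 3 and 0 lower without shielded library 1 or 2 or unshielded library 1 or 3. They were 9 higher with the brain-cell covariate and 6 with library totals, and the lower one, Tap2, a peptide transporter subunit (-0.30 ± 0.12, adjusted p = 0.0477), lost its call in 13 of 18 alternatives (log2 fold change -0.48 to -0.030), among them without shielded library 1, shielded library 2, unshielded library 1 or unshielded library 3 and shares exon sequence with another gene.

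Class II promoters carry a Y box, CTGATTGG, that binds NF-Y. The motif was chosen after the values were seen. It stands within 250 bases before the start, on either strand, in 4.43% of the 27025 promoters, in 2 of the 4 higher class II genes with an entry and in 1 of the 3 lower ones. The windows of H2-Aa, at chr17:34287847-34287934 on the minus strand, H2-Eb1, at chr17:34305745-34305832 on the plus strand, and H2-Oa, at chr17:34092273-34092360 on the plus strand (RefSeq, GRCm38.p6), place the box, in capitals, beside genes that rose and a gene that fell.
H2-Aa: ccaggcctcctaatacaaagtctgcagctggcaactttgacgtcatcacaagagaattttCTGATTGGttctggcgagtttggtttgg
H2-Eb1: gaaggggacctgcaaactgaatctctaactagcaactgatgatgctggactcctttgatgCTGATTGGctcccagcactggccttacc
H2-Oa: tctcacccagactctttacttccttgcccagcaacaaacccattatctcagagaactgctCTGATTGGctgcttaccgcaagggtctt

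Several receptors for opsonised targets and complement fragments were lower in unshielded mice. Of 15 complement genes, 6 were lower (40%) and 1 was higher (6.67%), against 25.6% and 19.1% over all genes. No complement gene was higher without shielded library 2 or unshielded library 1 or 2, against 4 in limma-voom. The anaphylatoxin receptors C3ar1 and C5ar1 fell (-1.43 ± 0.12 and -1.40 ± 0.16, adjusted p = 5.5e-06 and 2.85e-05), the former from 425 to 157 CPM. Itgam, which encodes the CD11b chain used for the sort, fell from 714 to 343 CPM (-1.06 ± 0.15, adjusted p = 0.000117), and it shares exon sequence with another gene. Of 6 Fc receptor genes 3 were lower and 3 did not pass (1 higher without shielded library 1 and in 6 other alternatives). The lower ones included the IgG receptors Fcgr1 and Fcgr3 (-0.66 ± 0.11 and -0.67 ± 0.10, adjusted p = 0.000466 and 0.000284). Scavenger receptor and phagocytosis genes split, with 7 of 18 higher and 3 lower. Cd36, which takes up oxidised lipoproteins, rose from 8.02 to 47.1 CPM (2.55 ± 0.27, adjusted p = 3.17e-05), and Pros1, a bridge to apoptotic cells, fell (-0.87 ± 0.12, adjusted p = 9.75e-05).

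Of 19 lipid efflux and uptake genes, 8 were higher and 3 lower, with a median log2 fold change of 0.19. Besides Apoe, the cholesterol exporter Abcg1 rose from 49.2 to 127 CPM (1.37 ± 0.10, adjusted p = 2.71e-06) and the phospholipid transfer protein Pltp from 21.1 to 74.2 CPM (1.81 ± 0.13, adjusted p = 3.12e-06). The membrane-remodelling enzyme Lpcat3 and the lipoprotein lipase Lpl were lower (-0.86 ± 0.11 and -0.71 ± 0.12, adjusted p = 8.45e-05 and 0.000399). Of 18 cholesterol synthesis genes, 10 were lower and 8 did not pass, against 25.6% lower over all genes, and 6 were lower with library totals or in the 6 LPS libraries with or without a replicate block. Hmgcs1, an early enzyme of the pathway, fell (-0.74 ± 0.07, adjusted p = 1.28e-05), as did Cyp51 (-0.76 ± 0.09, adjusted p = 4.3e-05) and Hsd17b7 (-0.94 ± 0.10, adjusted p = 2.48e-05).

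Microglia near amyloid plaques turn on a set known as disease-associated genes. Of 20 such genes, 8 were higher (40%) and 6 lower (30%) in unshielded mice, against 19.1% and 25.6% over all genes. Igf1, a growth factor, rose from 2.20 to 27.7 CPM (3.66 ± 0.28, adjusted p = 6.53e-06), while the tetraspanin Cd9 and the lysosomal protease Ctsl fell (-1.15 ± 0.12 and -1.27 ± 0.13, adjusted p = 1.52e-05 and 1.72e-05). Lysosome genes were likewise mixed, with 8 of 22 higher (36.4%) and 5 lower (22.7%). The higher count was 5 when any one shielded library was left out and 13 with library totals. Among the higher was Atp6v0d2, a proton pump subunit at 0.0961 and 1.48 CPM (3.85 ± 0.43, adjusted p = 2.48e-05).

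Glycolysis genes were lower more often than higher in unshielded mice. Macrophages raise glycolysis after LPS, and of 18 genes of the pathway 11 were lower and 3 higher. The lower count was 6 with the brain-cell covariate and 7 in the 6 LPS libraries alone. The lactate exporter Slc16a3 fell from 162 to 72.9 CPM (-1.16 ± 0.15, adjusted p = 8.65e-05), lactate dehydrogenase Ldha from 921 to 532 CPM (-0.79 ± 0.11, adjusted p = 0.000105), and the kinase Pgk1 was lower (-0.77 ± 0.10, adjusted p = 9.12e-05). The isoforms Hk1 and Pfkp, of hexokinase and phosphofructokinase, rose (0.84 ± 0.08 and 1.19 ± 0.17, adjusted p = 1.18e-05 and 0.00013), and both share exons with another gene. Of 14 iron and metal genes 3 were higher (21.4%) and 5 lower (35.7%), against 19.1% and 25.6% over all genes. In the 6 LPS libraries with a replicate block 2 were lower. Beside Tfrc, the metal importer Slc39a14 fell from 525 to 175 CPM (-1.59 ± 0.18, adjusted p = 2.91e-05), and Hfe, which regulates the transferrin receptor, rose (0.88 ± 0.11, adjusted p = 6.26e-05).

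Adhesion and matrix genes included large changes in both directions. Of 17 integrin and adhesion genes, 5 were higher (29.4%) and 6 lower (35.3%), and of 20 matrix and protease genes, 5 were higher (25%) and 5 lower (25%). Over all genes 19.1% were higher and 25.6% lower, so these counts do not set the lists far apart from all genes. Itga4, the alpha-4 integrin by which leukocytes enter the brain, rose from 9.42 to 96.2 CPM (3.34 ± 0.31, adjusted p = 1.85e-05), as did its ligand Vcam1 (1.30 ± 0.19, adjusted p = 0.000182). Fn1, fibronectin, measured 501, 464 and 446 CPM with the shield and 135, 146 and 98.5 CPM without. The groups were separate (-1.89 ± 0.20, adjusted p = 2.72e-05), and the metalloproteinase Adamts1 fell as well (-2.0 ± 0.27, adjusted p = 0.00014).

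TGF-beta keeps microglia in their mature state. Of 17 genes of its signalling, 3 were higher (17.6%) and 6 lower (35.3%), against 19.1% and 25.6% over all genes. The lower count was 3 under the brain-cell covariate, and 5 were higher in limma-voom. The receptor subunit Tgfbr2 and the transducer Smad3 were lower (-0.49 ± 0.10 and -1.06 ± 0.13, adjusted p = 0.00218 and 3.98e-05), while Ltbp3, which stores latent TGF-beta, and Pmepa1, a feedback inhibitor, were higher (2.78 ± 0.20 and 1.04 ± 0.14, adjusted p = 3.44e-06 and 7.55e-05). Among 19 macrophage lineage transcription factors 8 were lower, Tal1 and Ets1 included (-1.69 ± 0.19 and -1.94 ± 0.20, adjusted p = 3.29e-05 and 2.13e-05), and 3 were higher.

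Radiation activates p53, and 20 of its targets and related genes were examined with that in view. In unshielded mice 4 were higher (20%) and 7 lower (35%), against 19.1% and 25.6% over all genes. Whether these calls relate to radiation was not tested. Cdkn1a, the p21 cell cycle inhibitor and a main p53 target, measured 238, 189.8 and 168 CPM with the shield and 154, 213 and 201 CPM without. The groups overlapped and no difference was called (-0.07 ± 0.13, adjusted p = 0.687), with the sign turning without shielded library 1 (0.045) or unshielded library 1 (0.015). Trp53inp1, a p53-inducible stress protein, rose from 32.4 to 108 CPM (1.74 ± 0.24, adjusted p = 0.000156). Cdkn2a, which encodes p16 and Arf, fell from 15.1 to 5.21 CPM (-1.54 ± 0.22, adjusted p = 0.000127), as did the exonuclease Aen and the cyclin Ccng1 (-1.05 ± 0.14 and -0.88 ± 0.11, adjusted p = 7.38e-05 and 4.6e-05).

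Of 21 cell cycle genes, 6 were higher (28.6%) and 2 lower (9.52%), against 19.1% and 25.6% over all genes. Mki67, the proliferation antigen Ki-67, measured 6.39, 5.26 and 5.86 CPM with the shield and 13.1, 20.2 and 20.4 CPM without. Every unshielded library was higher (1.61 ± 0.21, adjusted p = 7.43e-05), and the replication helicase subunit Mcm2 also rose (0.78 ± 0.11, adjusted p = 0.000113). Pcna, the sliding clamp of DNA polymerase and a p53 target as well, measured 147, 133 and 129.8 CPM against 78.1, 79.1 and 77.4 CPM. It was lower in all unshielded libraries (-0.80 ± 0.09, adjusted p = 2.78e-05).

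**Figure D4:**
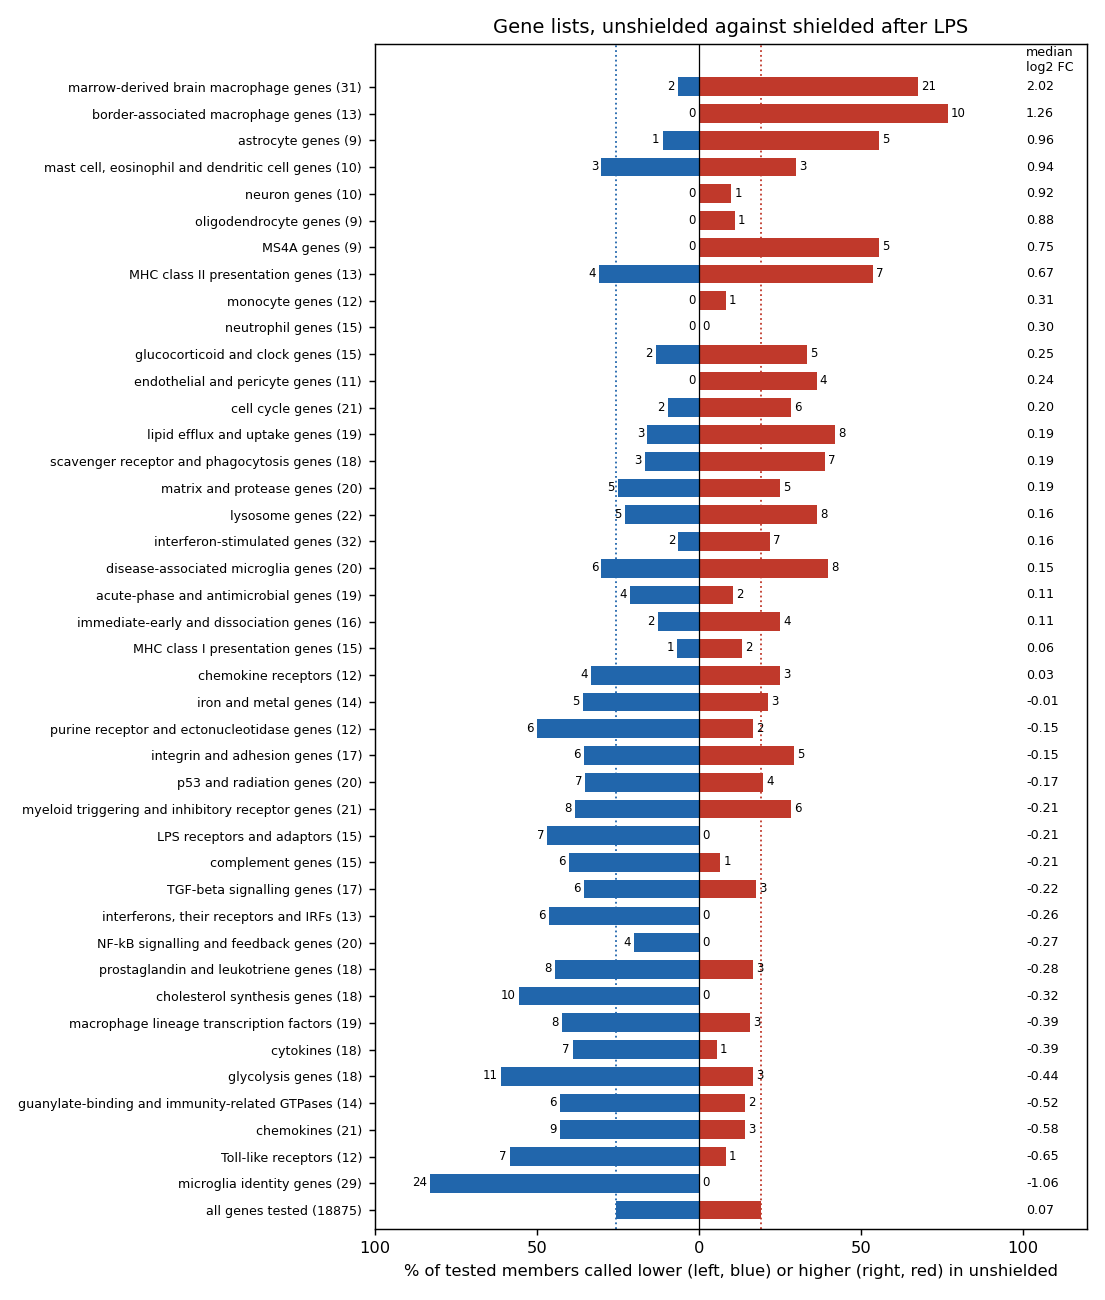
Percent of the tested members of each gene list called higher (right) or lower (left) in unshielded mice after LPS, with the list's median log2 fold change beside each bar. Dotted lines mark the shares over all genes tested, 19.1% higher and 25.6% lower. Microglia identity genes lie furthest to the left, and border-associated and marrow-derived macrophage genes furthest to the right.

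RNA of neuron, oligodendrocyte and astrocyte genes was present in every library. Of 10 neuron genes 1 was higher, Slc17a7, the vesicular glutamate transporter, at 2.71, 4.63 and 15.5 CPM with the shield and 25.3, 16.7 and 24.6 CPM without. The groups did not overlap, but the call (1.54 ± 0.53, adjusted p = 0.0346) was lost in 8 of 18 alternatives (adjusted p 0.000661 to 0.12). Without shielded library 3 all 10 neuron genes, 6 of 9 oligodendrocyte genes and 8 of 9 astrocyte genes were higher, and Slc17a7 stood at 2.56. With all libraries these counts were 1 of 10, 1 of 9 and 5 of 9, and without shielded library 1 or 2 or unshielded library 1 or 3 they were 0, 0 and 2 to 3. In limma-voom they were 10, 7 and 8. Astrocyte genes did not all move one way: 1 of the 9 was called lower, with all libraries and in each of the 18 alternatives. The lowest log2 fold change of that list was -1.75. Mbp, a myelin protein and the oligodendrocyte gene called (0.88 ± 0.33, adjusted p = 0.049), lost its call in 10 of 18 alternatives (log2 fold change 0.20 to 1.17), among them without shielded library 1, shielded library 2, unshielded library 1 or unshielded library 3. The mean log2 CPM of oligodendrocyte genes was 3.79, 5.06 and 5.70 with the shield and 6.19, 5.28 and 5.92 without. Gfap, the astrocyte filament, measured 10.01, 20.3 and 30.8 CPM and 46.9, 45.3 and 54.4 CPM, and its call (1.26 ± 0.38, adjusted p = 0.0193) was lost in 5 of 18 alternatives (adjusted p 0.00126 to 0.19), among them those without shielded library 1 (0.90) or 2 (1.23) or unshielded library 3 (1.18). With the neuron and oligodendrocyte level as a covariate, edgeR's test called 2395 genes higher and 3507 lower.

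Neutrophil genes gave 0 calls among 15 in edgeR's test, with 3 higher and 1 lower at an unadjusted p below 0.05, 3 higher and 1 lower in DESeq2 and 1 lower in limma-voom. With library totals, 2 were higher and 1 lower. S100a8, an abundant neutrophil calcium-binding protein, measured 87.7, 76.4 and 149 CPM with the shield and 217, 82.2 and 65.2 CPM without. Unshielded library 1 was the highest, the groups overlapped (0.22 ± 0.50, adjusted p = 0.737), and without that library the log2 fold change was -0.54. The granule proteases and peroxidase of immature neutrophils, Elane, Mpo, Prtn3 and Ctsg, were named after their values were seen. Elane measured 0.0301, 0.237 and 0.128 CPM against 3.03, 0.214 and 0.242 CPM, Mpo 0.0301, 0.396 and 0.288 CPM against 4.60, 0.253 and 0.354 CPM, and the same library 1 held the highest value of all 4. Their log2 fold changes of 3.20 ± 1.21, 2.92 ± 1.21, 2.98 ± 1.13 and 3.09 ± 1.75 did not pass (adjusted p = 0.0518, 0.0705, 0.0518 and 0.167) and were 0.82, 0.37, 0.77 and -0.57 without unshielded library 1. Leaving out unshielded library 2 or 3 made 3 neutrophil genes pass as higher, in both cases Elane, Mpo and Prtn3 with log2 fold changes from 3.40 to 3.71, and 1 neutrophil gene was lower without shielded library 3 or unshielded library 2. T and NK cell genes and B cell genes were near the lower limit of the table, with 6 of 12 and 4 of 7 tested. Of the tested ones only Cd4 was called, a co-receptor of helper T cells that macrophages can also express (1.38 ± 0.43, adjusted p = 0.0197). Its call was lost in 6 of 17 alternatives (log2 fold change 1.02 to 2.03), among them without shielded library 1, shielded library 2 or unshielded library 3. Among the untested genes, Cd3e had 0, 0 and 0 counts with the shield and 11, 10 and 7 without. Cd8a had 0, 0 and 1 counts against 4, 8 and 9, and Ncr1 5, 2 and 4 against 3, 4 and 7. The unshielded libraries were the deeper ones. With no filter on low counts, 3 T and NK cell genes were called higher.

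The shield difference after LPS was then set beside that without LPS, which has its own control libraries. Without LPS 2043 genes (10.8%) differed between unshielded and shielded mice, 751 (3.98%) higher and 1292 (6.85%) lower. Of the 8423 genes called after LPS, 1559 were called the same way without LPS, which is 18.5% of the calls after LPS and 76.3% of those without, and 48 were called the opposite way. Over the 18875 genes the log2 fold changes of both comparisons had a Pearson r of 0.545 and a Spearman rho of 0.506, given as a description across genes, which are not independent replicates. A test of the difference between the 2 shield effects, in the same model, called 2512 genes (13.3%): 767 (4.06%) more positive after LPS and 1745 (9.25%) more negative.

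**Figure D5:**
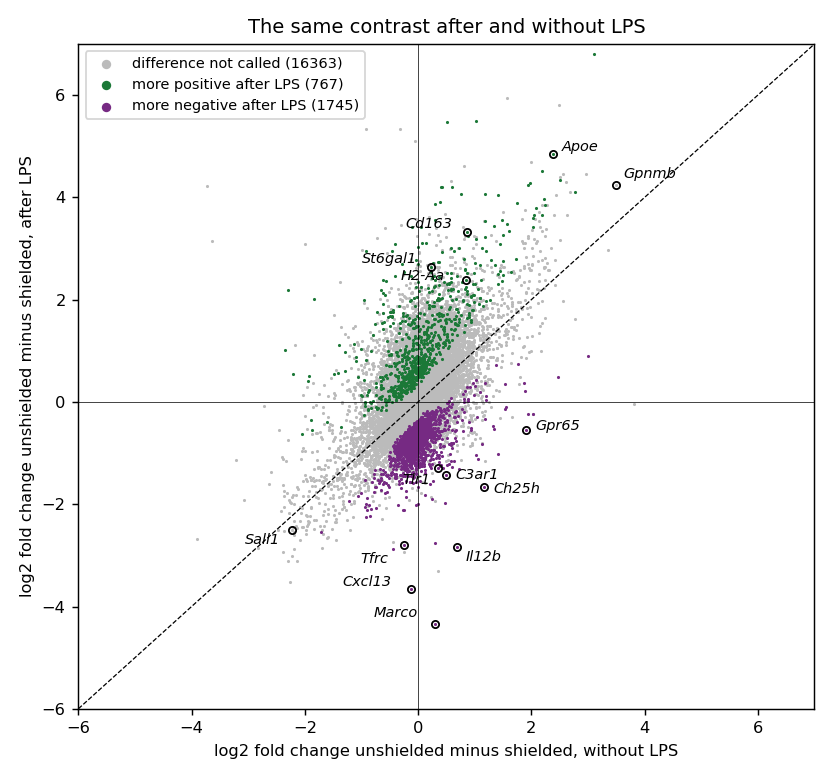
Log2 fold change of unshielded over shielded mice without LPS (x axis) and after LPS (y axis), 1 point per gene tested. Colours mark the genes whose shield effect differed after LPS in edgeR's test: 767 more positive and 1745 more negative.

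That test rests on the libraries without LPS, and 2 of them, shielded libraries 2 and 3, have a treatment field that says LPS although their titles do not. Saa3 measured 1.38, 0.388 and 0.412 CPM in the shielded libraries without LPS, against no less than 559 CPM in any LPS library. Leaving both out leaves 1 shielded library without LPS, so a call lost in that fit may reflect fewer replicates, which was not tested. Estimates stayed close for some genes, such as H2-Aa (1.546 with all libraries, 1.548 in that fit) and Irf8 (-0.753, -0.758). Others moved, such as Il12b (-3.51, -2.81). The count of 2512 became 1615 without shielded library 3 of the mice without LPS alone and 1635 without their unshielded library 2. It was 6391 without shielded library 3 of the LPS mice. Runx3 was 16.7, 8.08 and 11.4 CPM and 48.1, 34.5 and 56.8 CPM without LPS, with and without the shield. Its shield effect was 1.94 ± 0.30 there and larger by 2.30 ± 0.41 after LPS (adjusted p = 0.00586, 8.51e-07 to 0.0291 over the alternatives). Tfrc was 31.5, 33.6 and 35.1 CPM and 27.0, 30.1 and 27.2 CPM without LPS. There its log2 fold change was -0.25 ± 0.15 (adjusted p = 0.396), and the difference was -2.54 ± 0.22 (adjusted p = 0.000464, 6.48e-22 to 0.0111).

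The 6 genes with the most positive differences, among genes whose log2 CPM averaged 3 or more over all 12 libraries, were Apoe (2.45 ± 0.55, adjusted p = 0.0152, 0.00116 to 0.083 over the alternatives), Runx3, Pde7b (2.64 ± 0.45, adjusted p = 0.00468), Cd163 (2.46 ± 0.35, adjusted p = 0.00239), the sialyltransferase St6gal1 (2.42 ± 0.22, adjusted p = 0.000464) and the GTPase-activating protein Stard13 (2.15 ± 0.32, adjusted p = 0.00232). All 6 kept the call without the libraries of conflicting fields, and Apoe lost it in 2 of the 21 alternatives. The 6 most negative were Il12b (-3.51 ± 0.78, adjusted p = 0.0151, 0.000317 to 0.193 over the alternatives), Ch25h (-2.83 ± 0.42, adjusted p = 0.00283, 8.23e-10 to 0.0735), Tfrc, the proton-sensing receptor Gpr65 (-2.46 ± 0.30, adjusted p = 0.00135), the kinase Ikbke (-2.18 ± 0.45, adjusted p = 0.0113, 1.24e-05 to 0.167) and Fn1 (-2.13 ± 0.29, adjusted p = 0.00195). After LPS itself Gpr65 was not called (log2 fold change -0.55), though it passed as lower in 8 of 18 alternatives. Ikbke was called in none of the 18 (-0.57 to -0.0012). Most of both differences therefore came from higher values in unshielded mice without LPS. Of the 6 most negative, Tfrc, Gpr65 and Fn1 kept the call without the libraries of conflicting fields, and Il12b, Ch25h and Ikbke did not. Under that level minimum, Marco differed by -4.64 ± 0.94 (adjusted p = 0.0082) and kept it, as did Flt3 (2.88 ± 0.30, adjusted p = 0.000725), while Cxcl13 did not (-3.55 ± 0.86, adjusted p = 0.0217, 0.00167 to 0.212 over the alternatives). Sall1, by contrast, differed by a log2 fold change of -2.23 ± 0.40 without LPS and -2.50 ± 0.40 after it, and the difference was not called (-0.26 ± 0.54, adjusted p = 0.759). P2ry12 had log2 fold changes of -1.49 ± 0.19 without LPS and -0.73 ± 0.18 after, also not called (0.76 ± 0.26, adjusted p = 0.0715).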

How the data were processed

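RNA from CD11b-bead-sorted brain cells was linearly amplified and sequenced, per the labels' protocols, and the authors deposited 1 table of raw read counts for 36491 genes in 12 libraries. FastQC, STAR and HTSeq with the mm9 build are named in the submitters' processing notes. Not given in the sources used here are their versions, the release of the annotation and whether counting used strand. The unit throughout is the count as deposited, and all else was computed from it. Symbols came from a table of gene names, with 254 identifiers left without one and 12 sharing one. The file held no gene with fewer than 2 counts over all libraries.

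Counts were filtered with filterByExpr (minimum count 10, minimum total 15), scaled by TMM and fitted with edgeR 4.0.16 in R 4.3.3 by robust quasi-likelihood, with 1 model for 4 groups of 3 libraries and Benjamini-Hochberg adjustment over 18875 genes at 0.05. Contrasts were unshielded against shielded after LPS, the same without LPS, and their difference. Groups followed titles; for 2 shielded libraries without LPS the treatment field disagrees with the title. Log2 CPM used a prior count of 2. The steps were tested on simulated counts. Same-group libraries differed beyond sampling noise (chi-square per degree of freedom 21.7 to 42.3). Alternatives used limma 3.58.1, DESeq2 1.42.0, other scalings, filters, thinning, a brain-cell covariate, a replicate block and each library left out. Replicate numbers do not mark shared animals, and deviations of same-numbered libraries correlated at -0.26, 0.15 and 0.48, so they were not treated as pairs.

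The comparison, the 48 gene lists (680 genes, 679 in the table) and the genes named were chosen with earlier results of these data known. Genes named are those with the 12 largest changes in each direction without overlap and a log2 CPM averaging 3 or more, up to 3 called members of each list and direction by smallest p, a fixed set given whatever its values, and the 6 largest differences in each direction at the same level over 12 libraries. Exceptions are said in place. Some genes of this rule are not reported here. Of 172 genes considered for the text, 39 share exon sequence with another gene of the table, and their counts are uncertain. Most of these overlaps are on opposite strands and depend on the strand setting, which is not given. Some, such as those of Ticam2 with Tmed7 and Adora3 with Tmigd3, are on the same strand. Precision is limited by 3 libraries a group and by depth, from 29794946 to 60495968 counts in the libraries compared.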

Additional observations from a re-analysis of the deposited data

Results flagged for a closer look

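The shield difference itself changed with LPS for 2512 genes in edgeR's test, and the genes below are those of the report among them. Each value is the log2 fold change of unshielded over shielded mice after LPS minus that without LPS. Without the 2 libraries whose fields disagree, 148 genes differed, and 22 of the 60 genes below kept the call.

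Among the genes that kept the call in that fit, the more positive after LPS were Apoe (2.45), Tlr8 (1.83), Emilin1 (1.33), Mrc1 (1.90), Axl (0.97), Runx3 (2.30), Runx2 (2.34), Cd163 (2.46), Flt3 (2.88), Igf1 (1.46), Pde7b (2.64), Cyp4f18 (1.74), Abcg1 (1.22), Hfe (1.11), St6gal1 (2.42) and Stard13 (2.15). The more negative were Tfrc (-2.54), Tlr1 (-1.63), Marco (-4.64), C3ar1 (-1.93), Fn1 (-2.13) and Gpr65 (-2.46). Over all 21 alternatives 16 of these genes kept the call, while Emilin1 lost it in 12, Tlr8 and Cyp4f18 in 10 each, Axl and Igf1 in 6 each and Apoe in 2.

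The other genes lost the call in the fit with 1 shielded library without LPS. More positive with all 12 libraries were the macrophage, lipid and matrix genes Pf4 (0.91), Col14a1 (1.71), Pltp (1.15), Ltbp3 (1.5) and Gpr34 (1.10), the MHC class II chains H2-Aa (1.55), H2-Eb1 (1.57) and H2-Ab1 (1.36), and Hk1 (0.73), Trp53inp1 (1.70), Mki67 (1.07) and Tsc22d3 (0.61). More negative were the inflammatory mediators and their enzymes Cxcl13 (-3.55), Il12b (-3.51), Tnf (-1.33), Ccl12 (-2.01), Ch25h (-2.83), Ptges (-1.78) and Ikbke (-2.18), and the receptors, adaptors and factors Cx3cr1 (-1.20), Tlr6 (-0.64), Ticam2 (-1.05), Irf8 (-0.75), Ifngr2 (-0.69), C5ar1 (-0.78), Clec5a (-0.76) and Pilra (-1.07). Metabolic and transport genes followed, with Lpl (-0.64), Hmgcs1 (-0.45), Cyp51 (-0.56), Hsd17b7 (-0.71), Ldha (-0.62), Pgk1 (-0.48) and Slc39a14 (-1.5), and so did Rps4l (-0.84), Aen (-0.92), Ccng1 (-0.52) and Pcna (-0.78).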

How the results depend on the processing

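The alternatives moved the counts of the comparison. The 3596 higher genes were 2395 with the brain-cell covariate, 2313 in the 6 LPS libraries alone, 2250 in those with a replicate block and 6014 with limma-voom and quality weights, which had 5914 lower. Leaving out 1 library at a time gave 2134 to 5231 higher genes, 3985 to 5870 lower genes and 6362 to 11101 in all. With the replicate block over 12 libraries, 4368 genes were higher and 5040 lower, and the numbers do not pair the libraries. The 24 lower microglial genes ranged from 22 to 25 and the 21 higher marrow-derived genes from 21 to 24 with a library left out. Of 150 genes considered for the text and called after LPS, 134 kept the call in all 18 alternatives, and of 60 with a called difference of the shield effect, 16 did in all 21. The difference of the shield effect was called for 1571 genes with no filter on low counts, 148 without the 2 libraries of conflicting fields and 1615 to 6391 with a library left out. Its more positive part was 83 and 413 to 2951, and its more negative part 821, 65, 1142 to 3440 and, with the covariate, 1148. Sign changes were seen in genes without a call. With the covariate they were Ccr2 (-0.063), Cd14 (0.10), Saa3 (0.040), Lcn2 (-0.17), Cdkn1a (0.21), S100a8 (-0.16) and Gpr34 (-0.14), with limma-voom Trem2 (-0.050) and Tlr4 (0.013), with library totals Saa3 (0.031) and Cdkn1a (0.016), with thinned counts Saa3 (0.014) and Cdkn1a (0.0076), and Saa3 without a filter (0.0090) and in the 6 libraries alone (0.0091). With a library left out, values ran from -0.050 to 0.086 for Trem2, -0.067 to 0.48 for Ccr2, -0.19 to 0.11 for Saa3, -0.12 to 0.18 for Lcn2, -0.24 to 0.045 for Cdkn1a, -0.54 to 0.52 for S100a8, -0.14 to 0.31 for Gpr34 and -0.57 to 3.84 for Ctsg. The cause of these shifts was not tested. Depth limits the genes near 1 CPM or below, such as Elane and Mpo, and the median log2 fold change of all genes was 0.15 with library totals and 0.40 with no filter, against 0.07.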

Other observations

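Lipid mediator, stress-response and myeloid receptor genes of the same comparison are given here. Of 18 prostaglandin and leukotriene genes, 8 were lower and 3 higher in unshielded mice, with 5 lower without unshielded library 3, with the brain-cell covariate or in the 6 LPS libraries alone, and 1 higher without shielded library 2 or unshielded library 2. Hpgds, the haematopoietic prostaglandin D synthase, measured 259, 259 and 255 CPM with the shield and 135, 119.7 and 105 CPM without. All unshielded libraries were lower (log2 fold change -1.10 ± 0.12, adjusted p = 2.28e-05 in edgeR's test). Ptger2, a receptor for prostaglandin E2, rose from 1.25 to 8.51 CPM (2.76 ± 0.25, adjusted p = 7.71e-06). Of 15 glucocorticoid and clock genes, 5 were higher and 2 lower (8 higher in 3 alternatives), near the 44.6% called over all genes. The glucocorticoid targets Tsc22d3, which encodes GILZ, and Zbtb16 were higher (0.69 ± 0.09 and 1.96 ± 0.31, adjusted p = 9.44e-05 and 0.000444). Immediate-early genes, which also respond to cell isolation, gave 4 higher and 2 lower of 16, a share below that of all genes. Fos measured 482, 545 and 487 CPM with the shield and 797, 1061 and 876 CPM without, and Egr1 469, 461 and 315 CPM and 168, 208 and 144 CPM. Fos was higher and Egr1 lower in every unshielded library (0.85 ± 0.22 and -1.26 ± 0.27, adjusted p = 0.00753 and 0.00277). The higher count fell to 2 without shielded library 3 or unshielded library 2, and the lower count to 1 without shielded library 1 or 2 or unshielded library 1 or 3.

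Activating and inhibitory receptors of myeloid cells split, with 6 of 21 higher (28.6%) and 8 lower (38.1%), against 19.1% and 25.6% over all genes. Clec4d, a lectin for mycobacterial glycolipids, rose from 26.7 to 159 CPM (2.57 ± 0.25, adjusted p = 2.01e-05), while Clec5a, a DAP12-coupled lectin, fell from 437 to 199 CPM (-1.14 ± 0.14, adjusted p = 5.24e-05). The inhibitory receptor Pilra fell from 157 to 39.6 CPM (-1.99 ± 0.19, adjusted p = 1.64e-05) and shares exon sequence with another gene. Of 9 MS4A genes 5 were higher and 4 did not pass, and Ms4a4a rose from 59.6 to 409 CPM (2.78 ± 0.36, adjusted p = 0.000136). Of 10 mast cell, eosinophil and dendritic cell genes tested, 3 were higher (30%) and 3 lower (30%), against 19.1% and 25.6% over all genes. Flt3, the receptor of blood progenitors and dendritic cell precursors, is on that list. It measured 1.24, 1.38 and 2.18 CPM with the shield and 23.2, 27.1 and 30.5 CPM without. The groups were far apart (4.07 ± 0.23, adjusted p = 5.76e-07). Of 12 purine receptor and ectonucleotidase genes 6 were lower and 2 higher, with 1 higher without shielded library 1 or unshielded library 1 or with the brain-cell covariate. Of 11 endothelial and pericyte genes 4 were higher and 7 did not pass, with 1 higher under the brain-cell covariate.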
